A study of Mus musculus with 12 samples.

Results

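The subject is 37 mouse interferon-stimulated genes outside the Irf and Gbp families, named by symbol, and their signals in fibroblasts exposed to interleukin-1 beta (IL-1b). Probe sets annotated with a single member symbol covered 35 of the 37 genes, among 18193 genes so covered on the array, through 64 of its 45101 probe sets. Isg15 was not analysed here because its probe set is shared with Gm9706, and Ifi44 had no probe set used here.

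Embryonic fibroblasts from IRAK4 kinase dead (KD) and wild-type (WT) animals were profiled on 12 single-colour Affymetrix arrays, with 2 arrays in each of 6 groups. KD cells had no IL-1b, 1 h of IL-1b or 4 h of IL-1b at 1 ng/ml, and WT cells had the same 3 conditions. The unstimulated cells of each genotype were kept for 4 h and are the reference for 1 h as well as 4 h. The title of WT unstimulated replicate 1 does not give the genotype, and it was placed by the series design of 6 arrays per genotype. The replicates are called biological, but no separate animals or cultures are named for them. The p-values therefore measure the spread between these samples, which may be technical. The labels used here name no strain, embryo age or number of embryos, and the Irak4 transcript was not analysed here.

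Type I interferons bind a surface receptor whose kinases JAK1 and TYK2 activate STAT transcription factors. Complexes that hold STAT2 and IRF9 bind interferon-stimulated response elements (ISREs), gamma-activated sites (GAS) are a second kind of element, and many of the resulting proteins restrict viruses. IL-1b instead signals through MyD88 and the kinase IRAK4 to NF-kB and MAP kinases, and some interferon-stimulated genes also respond to NF-kB.

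In WT cells 5 of 27 tested members were higher after 4 h of IL-1b and 0 were lower (adjusted p under 0.05), where 12% of all genes tested were called. They were led by the ubiquitin ligase genes Dtx3l, whose protein works with PARP9, at 3.25-fold and Trim21, whose protein also binds antibodies, at 3.17-fold (from log2(signal + 8)). Xaf1, Rnf213 and Ifi35 were the other 3. In KD cells 0 of 27 were called at 4 h, where 0.618% of all genes were called. The 4 h responses of Dtx3l, Trim21, Xaf1 and Ifi35 differed between the genotypes, a comparison in which 3.03% of all genes were called. Of the classical antiviral members Mx, Oas, Rsad2 and Ifit, none passed the test at 4 h against unstimulated cells, and several were too dim to be tested. An alternative fit, given below, called Ifit1 in WT cells. Across all conditions, where 31.8% of all genes were called, Irgm1 was 2.16-fold higher in KD cells.

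Promoters are shown for the 4 members with the largest WT changes at 4 h among those called in any comparison and listed in the promoter table. As searched, they differ in the matches they hold. Each sequence is RefSeq's, build GRCm38.p6, from 250 bases before to 50 after the gene's start, written 5′ to 3′ along the gene. Capitals mark matches on either strand to an ISRE-like motif (GAAA and GAAA with any 2 bases between), a GAS-like motif (TTC and GAA with any 3 between) or a kB-like motif (GGGA and CC with any 4 between).
Dtx3l, chr16:35938978-35939277, minus strand: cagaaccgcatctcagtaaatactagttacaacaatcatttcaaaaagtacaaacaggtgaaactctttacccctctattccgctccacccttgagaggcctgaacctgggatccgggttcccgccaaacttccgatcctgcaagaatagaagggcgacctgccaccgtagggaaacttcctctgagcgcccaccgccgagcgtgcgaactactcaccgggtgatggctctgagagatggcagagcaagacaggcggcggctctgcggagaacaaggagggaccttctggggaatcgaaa
Trim21, chr7:102565433-102565732, minus strand: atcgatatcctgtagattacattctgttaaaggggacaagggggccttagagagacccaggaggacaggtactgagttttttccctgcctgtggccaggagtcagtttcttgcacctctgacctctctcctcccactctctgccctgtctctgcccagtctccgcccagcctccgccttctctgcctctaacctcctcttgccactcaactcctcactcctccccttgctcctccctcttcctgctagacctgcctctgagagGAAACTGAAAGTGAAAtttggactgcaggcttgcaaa
Ifit1, chr19:34640639-34640938, plus strand: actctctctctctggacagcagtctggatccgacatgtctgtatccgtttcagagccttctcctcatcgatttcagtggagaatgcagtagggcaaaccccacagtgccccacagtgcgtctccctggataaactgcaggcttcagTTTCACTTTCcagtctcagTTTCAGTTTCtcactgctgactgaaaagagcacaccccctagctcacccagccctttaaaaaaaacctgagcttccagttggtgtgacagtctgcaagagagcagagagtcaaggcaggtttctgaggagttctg
Xaf1, chr11:72301379-72301678, plus strand: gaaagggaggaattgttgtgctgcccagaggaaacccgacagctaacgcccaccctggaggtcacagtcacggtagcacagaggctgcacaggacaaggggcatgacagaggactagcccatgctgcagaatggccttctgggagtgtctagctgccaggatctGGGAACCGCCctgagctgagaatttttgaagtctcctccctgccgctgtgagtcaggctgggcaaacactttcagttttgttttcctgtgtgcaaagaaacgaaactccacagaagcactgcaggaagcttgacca
Dtx3l held no match. Trim21 held 2 overlapping ISRE-like matches that begin 14 and 20 bases after the start, and Ifit1 held 2 on the opposite strand that begin 104 and 85 bases before it. Xaf1 held a single kB-like match that begins 86 bases before the start.

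ISRE-like matches were found in 13 of 36 member promoters, which belong to 30 members, against 3.44% of all 32841 promoters of that length. GAS-like matches were found in 9 of 36, against 8.3% of all, and kB-like matches in 7 of 36, against 20.7% of all. Of the 5 members that rose in WT cells at 4 h, Trim21 held the ISRE-like motif, Ifi35 the GAS-like and Xaf1 the kB-like motif, while Dtx3l and Rnf213 held none of them as searched. The kB-like motif fixes the letter after GGG as A. The Rnf213 promoter holds ggggaattcc, which has G there and was not counted. The Dtx3l promoter holds gggaaacttcc, with more bases between GGGA and CC than that motif allows. The Xaf1 promoter holds gaaacgaaa, with fewer bases between its GAAA runs than the ISRE-like motif. Neither was counted. Of the other members with a call and a promoter, Ifit1, Ddx58, Irgm1, Bst2 and Eif2ak2 each held an ISRE-like match. Pml, Isg20, Trim25 and Adar held no ISRE-like match. Pml held a kB-like match, Isg20 and Adar held GAS-like and kB-like matches among their promoters, and Trim25 held no match. Bst2 also held a GAS-like match, and Eif2ak2 also a GAS-like and a kB-like match. A match is a run of letters and not a measured binding site.

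Signals are the authors' MAS5 intensities, and the median of all values on all arrays, hereafter the array median, was 25.5. Of the 35 measured members, 5 stayed under that median on every array with every probe set: Mx2, Oas1a, Oasl2, Dhx58 and Cmpk2. Their highest signals were 18.8 for Mx2, 15.3 for Oas1a, 13.8 for Oasl2, 16.5 for Dhx58 and 19.3 for Cmpk2. Mx2 restricts viruses, Oas1a and Oasl2 belong to the oligoadenylate synthetase family that senses double-stranded RNA, Dhx58 is a RIG-I-like receptor and Cmpk2 is a mitochondrial nucleotide kinase. Rsad2 (viperin, a radical SAM enzyme), Usp18 (the protease that removes ISG15) and Zbp1 (a sensor of Z-form nucleic acid) passed the median on 1 array each. The remaining 27 reached it on at least 2 arrays and were tested. A member that is bright in a single group can pass that filter through the group alone.

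**Figure D1:**
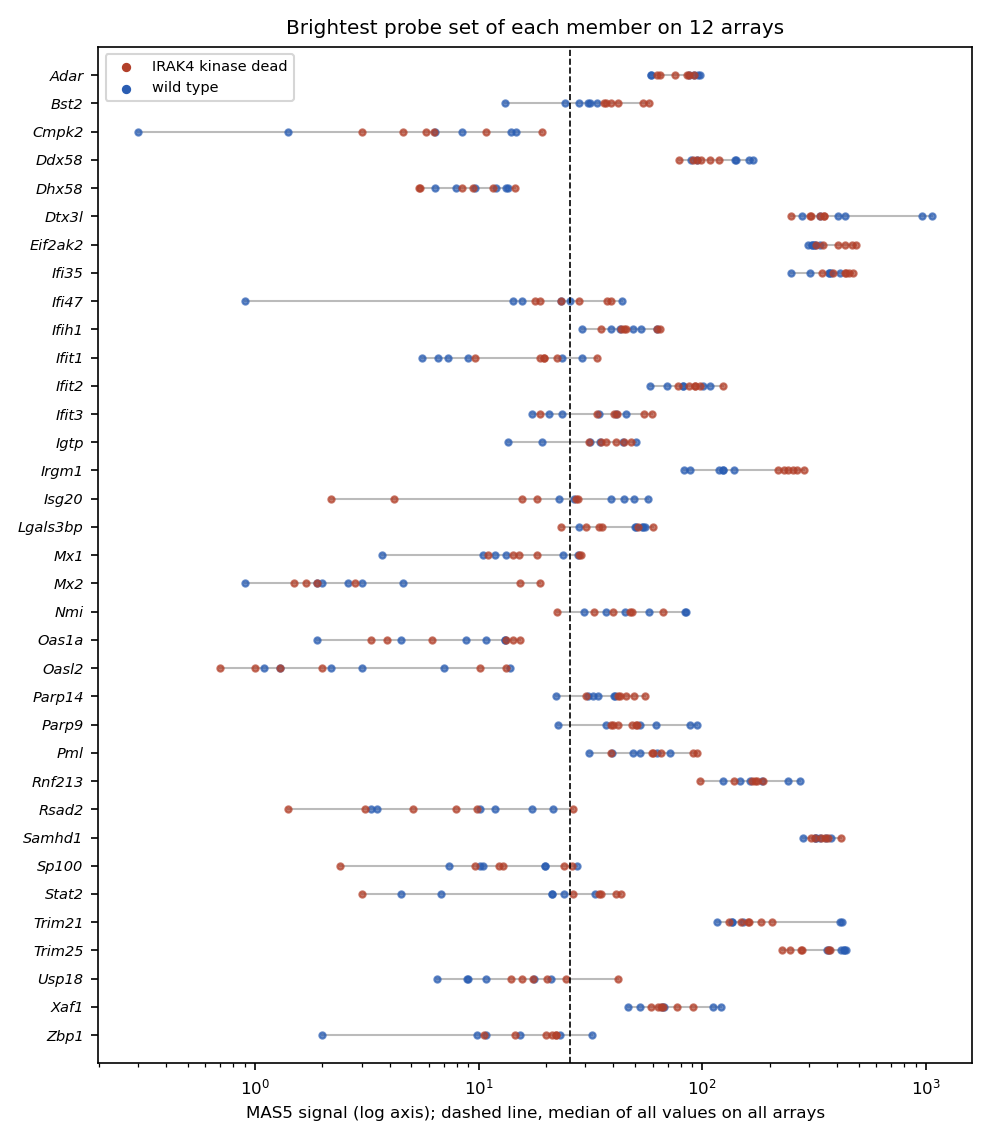
Signal of each of the 35 measured members (probe set with the highest mean, in alphabetical order) on the 12 arrays, log axis, with KD arrays in red and WT arrays in blue. The dashed line is the median of all values, 25.5. The 5 members named above lie left of it throughout, and Irgm1 shows KD and WT arrays apart. Levels of different probe sets are not comparable.

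The enzymes of ubiquitin and ADP-ribose transfer are given first. In KD cells Dtx3l gave 306 and 250.1 without IL-1b, 349 and 303 at 1 h and 349 and 336 at 4 h. In WT cells it gave 279 and 336 without IL-1b, 436 and 404 at 1 h and 1067 and 964 at 4 h. Both WT 4 h arrays lay above every other array. The WT change at 4 h was 1.70 ± 0.13, adjusted p = 1.44e-07 (log2 fold change ± SE, n = 2 arrays a group, limma with Benjamini-Hochberg adjustment over 12456 genes). All fold changes and adjusted p-values that follow are from that fit. Over all tested genes 12% were called in this comparison, 4.69% as higher and 7.34% as lower, and the median change was 0.22 over the 27 members and -0.12 over all genes. A second Dtx3l probe set was also higher, by 2.37 with adjusted p = 5e-05.

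Trim21 signals were 183 and 132 without IL-1b, 149 and 162 at 1 h and 159.8 and 205 at 4 h in KD cells, against 116 and 136 without IL-1b, 151 and 136 at 1 h and 412 and 419.9 at 4 h in WT cells. The WT 4 h arrays stood above all others, and the WT change at 4 h was 1.66 ± 0.17, adjusted p = 3.78e-06. Its second probe set changed by 0.24 with adjusted p = 0.774, so of its 2 tested probe sets only the first rose.

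Rnf213, a large E3 ligase with an ATPase domain, reached 138 and 98.2 without IL-1b, 166 and 176 at 1 h and 173 and 186 at 4 h in KD cells. The WT arrays gave 124 and 148 without IL-1b, 164 and 185 at 1 h and 240.5 and 272 at 4 h. Again both WT 4 h arrays were the highest, and the WT change was 0.88 ± 0.17, adjusted p = 0.00201. A second Rnf213 probe set changed by -0.35 in WT cells at 4 h with adjusted p = 0.683.

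Parp9, the catalytically weak ADP-ribosyltransferase that pairs with DTX3L, lies next to Dtx3l on chromosome 16, with spans that overlap. Its signals were 41.9 and 40 without IL-1b, 50.8 and 51.2 at 1 h and 39 and 48.6 at 4 h in KD cells, against 62 and 52.6 without IL-1b, 22.7 and 37.1 at 1 h and 88.2 and 95.2 at 4 h in WT cells. The WT 1 h arrays were the lowest of the 12 and the WT 4 h arrays the highest. Between 4 h and 1 h in WT cells Parp9 rose by 1.42 ± 0.24, adjusted p = 0.000522, while the change from unstimulated cells was 0.61 ± 0.24 at 4 h and -0.81 ± 0.24 at 1 h, with adjusted p = 0.118 and 0.0549. Parp14, a mono-ADP-ribosyltransferase on the other side of Dtx3l with 0 protein-coding genes between them, ranged over 22.2 to 55.7. Its main probe set changed by 0.37 ± 0.30, adjusted p = 0.467 in WT cells at 4 h and another by 1.80 with adjusted p = 0.056. Over all conditions that other set was lower in KD cells, at -1.05 with adjusted p = 0.0208, while the main set gave 0.34 ± 0.17, adjusted p = 0.153. Trim25, the E3 ligase that activates RIG-I, changed by 0.21 ± 0.11, adjusted p = 0.24 in WT cells at 4 h.

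**Figure D2:**
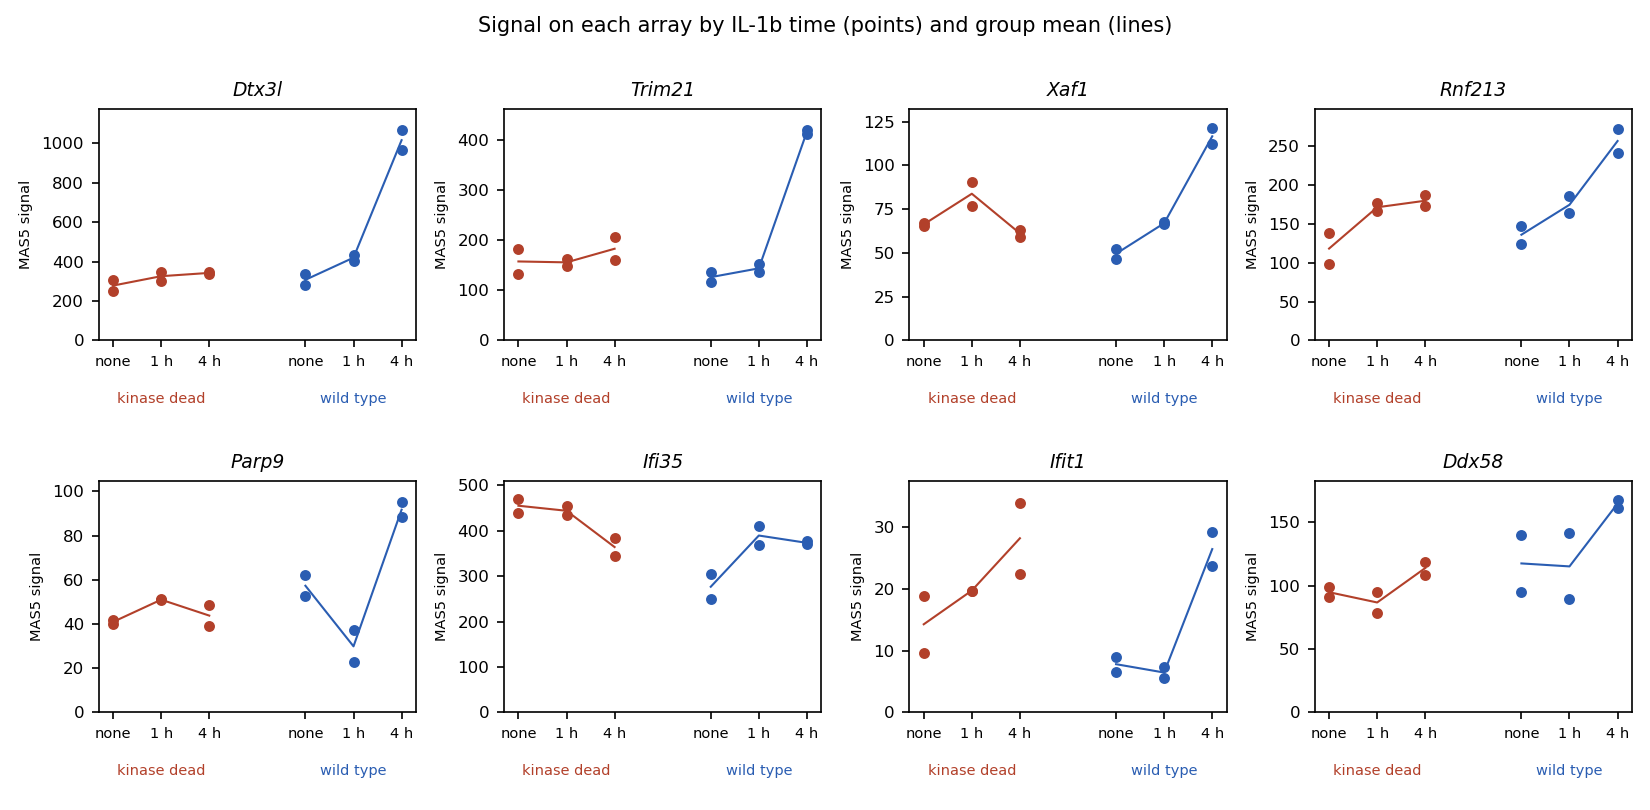
MAS5 signal on each array (points) and group mean (lines) of 8 members without IL-1b and after 1 h and 4 h, KD cells left in red and WT cells right in blue. For Dtx3l the KD 4 h arrays were at 349 and 336, while the WT 4 h arrays reached 1067 and 964.

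Among effectors outside the ubiquitin group, Xaf1, a pro-apoptotic partner of XIAP, gave 67.1 and 65.5 without IL-1b, 90.6 and 77 at 1 h and 63.2 and 59.1 at 4 h in KD cells. Its WT signals were 46.6 and 52.5 without IL-1b, 66.3 and 67.6 at 1 h and 112 and 121 at 4 h. The WT 4 h arrays exceeded all KD arrays, and the WT change at 4 h was 1.12 ± 0.19, adjusted p = 0.000733. Ifi35, a leucine zipper protein that binds NMI, showed 440.1 and 470 without IL-1b, 434 and 454 at 1 h and 344 and 384 at 4 h in KD cells. WT cells showed 304 and 249 without IL-1b, 368 and 411 at 1 h and 376 and 370.2 at 4 h, and unstimulated WT arrays were the lowest of the 12. Ifi35 rose in WT cells by 0.49 ± 0.12, adjusted p = 0.0224 at 1 h and by 0.43 ± 0.12, adjusted p = 0.0322 at 4 h. It was the only member called at 1 h in WT cells, where 7.44% of all genes were called, 2.92% as higher and 4.52% as lower. Dtx3l at 0.44 ± 0.13, Irgm1 at -0.47 ± 0.14 and Parp9 fell just short there, with adjusted p = 0.0519, 0.0538 and 0.0549. The 2 other Ifi35 probe sets were not called in WT cells at 4 h, with changes of 0.53 and 0.21. Without the eBayes trend or when only the compared groups were fitted, the Ifi35 call was lost at 1 h (adjusted p = 0.0742 and 0.126) and at 4 h (0.0757 and 0.147), and the mean of its probe sets was not called at 4 h (adjusted p = 0.113). Both Ifi35 calls were lost without WT unstimulated replicate 2 or either array of the IL-1b group compared, with adjusted p up to 0.197 at 1 h and 0.168 at 4 h. Nmi, the partner that binds STAT proteins, had 84.5 and 83.4 in WT cells at 4 h against 57.5 and 29.5 in unstimulated WT cells, a change of 0.89 ± 0.36, adjusted p = 0.124.

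Ifit1, which binds viral RNA with an unmodified cap, had 9.6 and 18.9 without IL-1b, 19.7 and 19.7 at 1 h and 22.4 and 33.9 at 4 h in KD cells. It had 9 and 6.6 without IL-1b, 7.3 and 5.6 at 1 h and 23.7 and 29.1 at 4 h in WT cells. WT signals at 4 h lay above those at 1 h and without IL-1b but near or under the array median. Ifit1 rose in WT cells between 1 h and 4 h by 1.25 ± 0.42, adjusted p = 0.047, and its change from unstimulated WT cells was 1.12 ± 0.42, adjusted p = 0.0962. Without the eBayes trend the change from unstimulated WT cells was called, at adjusted p = 0.0207. Its relatives Ifit2 and Ifit3, neighbours on chromosome 19, ranged over 58.2 to 123 and 17.4 to 59.7 and were called in no comparison. Mx1, a dynamin-like GTPase against influenza viruses, ranged over 3.7 to 28.8 with a WT 4 h change of -1.20 ± 0.46, adjusted p = 0.101. Ifi47, an immunity-related GTPase, ranged over 0.9 to 43.9 and changed by 1.32 ± 0.50, adjusted p = 0.0987. Neither passed the test. Without WT unstimulated replicate 1 the Ifi47 change was 2.23.

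Between 1 h and 4 h in WT cells 8 members were higher and 1 lower, where 19% of all genes were called, 8.41% as higher and 10.6% as lower. Median scaling of the arrays gave 5 higher and 2 lower members, where 2361 of 12456 genes were called, 719 of them as higher. Besides Parp9 and Ifit1, Dtx3l rose by 1.26 ± 0.13, adjusted p = 3.75e-06, Trim21 by 1.49 ± 0.17, adjusted p = 8.99e-06, and Xaf1 by 0.73 ± 0.19, adjusted p = 0.0112. Rnf213 rose by 0.54 ± 0.17, adjusted p = 0.0332. Adar, the enzyme that edits adenosines in double-stranded RNA, gave 85.9 and 92 without IL-1b, 64.7 and 75.3 at 1 h and 63 and 87.4 at 4 h in KD cells and 87.1 and 97.7 without IL-1b, 59.2 and 59.3 at 1 h and 96.2 and 91.9 at 4 h in WT cells. The WT 1 h arrays were the lowest of the 12, and WT cells at 4 h exceeded them by 0.60 ± 0.19, adjusted p = 0.0398. Irgm1, an autophagy-linked immunity GTPase, rose by 0.57 ± 0.14, adjusted p = 0.00865, again with the WT 1 h arrays lowest. Pml, the scaffold of nuclear bodies, gave 39.1 and 60 without IL-1b, 90.6 and 94.3 at 1 h and 59.5 and 65.1 at 4 h in KD cells. It gave 52.9 and 48.9 without IL-1b, 62.8 and 71.7 at 1 h and 31.2 and 39.3 at 4 h in WT cells, where it fell between 1 h and 4 h by 0.80 on the log2 scale, with adjusted p = 0.0211. A second Pml probe set fell in WT cells between no IL-1b and 4 h, at -1.13 with adjusted p = 0.0195. Leaving out WT 1 h replicate 1 left 3 of the 9 calls, and leaving out WT 4 h replicate 1 left 5. Leaving out WT 1 h replicate 2 left 4 of them and added Ddx58 as higher (adjusted p = 0.0331), and leaving out WT 4 h replicate 2 left 4 and added Ifit2 as lower (adjusted p = 0.044). Without any single one of these 4 arrays the calls of Adar, Rnf213 and Ifit1 were lost, with adjusted p up to 0.141 for Adar, 0.195 for Rnf213 and 0.189 for Ifit1. Ifit1 also lost its call without any KD array other than unstimulated replicate 1. Pml lost it without either WT 1 h array or WT 4 h replicate 1, Xaf1 without either WT 1 h array or WT 4 h replicate 2, and Irgm1 without WT 1 h replicate 1 or WT 4 h replicate 2, at adjusted p up to 0.135, 0.072 and 0.0767.

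In KD cells 1 member, Trim25, was called at 1 h and 0 at 4 h. Trim25 was higher at 1 h, where 3.28% of all genes were called, 1.56% as higher and 1.72% as lower. Trim25 signals were 246 and 227 without IL-1b, 366 and 374 at 1 h and 279.7 and 275 at 4 h in KD cells, against 367 and 363 without IL-1b, 441 and 429 at 1 h and 417 and 430.4 at 4 h in WT cells. The KD 1 h arrays lay above the other KD arrays, by 0.63 ± 0.11, adjusted p = 0.00509 over unstimulated KD cells, and this call was lost without KD unstimulated replicate 2 or KD 1 h replicate 2 (adjusted p up to 0.0667). At 4 h 0 of 27 members were called and 4 had an unadjusted p under 0.05, where 0.618% of all genes were called, 0.442% as higher and 0.177% as lower. Between 4 h and 1 h in KD cells 0 were called and 5 had an unadjusted p under 0.05, where 4.04% of all genes were called, 2.24% as higher and 1.8% as lower. Dtx3l changed by 0.30 ± 0.13 in KD cells at 4 h, with a 95% interval of 0.02 to 0.58. For Trim21 the KD change was 0.21 ± 0.17 with an interval of -0.15 to 0.57, and for Xaf1 -0.10 ± 0.19 with -0.50 to 0.29. Rnf213 changed by 0.59 ± 0.17, adjusted p = 0.123 in KD cells, with both KD 4 h arrays above both unstimulated ones. The second Dtx3l probe set was called higher in KD cells at 1 h, by 1.21 with adjusted p = 0.0435. KD cells responded to IL-1b in other genes: Cxcl1, a chemokine and NF-kB target, was higher at 4 h by 5.01 ± 0.25 with adjusted p = 1.29e-09.

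The difference of the 4 h responses, KD minus WT, was called for 4 of 27 members, all lower in KD, where 3.03% of all genes were called, 1.45% as higher and 1.58% as lower. It was -1.40 ± 0.19, adjusted p = 0.000329 for Dtx3l and -1.45 ± 0.24, adjusted p = 0.00198 for Trim21. For Xaf1 it was -1.22 ± 0.27, adjusted p = 0.0167, and for Ifi35 -0.74 ± 0.17, adjusted p = 0.0248. The median difference was -0.29 over members and 0.10 over all genes. For Dtx3l and Trim21 the genotypes overlapped in unstimulated cells and did not overlap at 4 h. Ifi35 differed in its start: unstimulated KD arrays had 440.1 and 470 and unstimulated WT arrays 304 and 249, and at 4 h the genotypes overlapped. Xaf1 also started apart, at 67.1 and 65.5 in unstimulated KD cells and 46.6 and 52.5 in unstimulated WT cells. That start is part of its response difference. At 4 h Xaf1 had 63.2 and 59.1 in KD cells and 112 and 121 in WT cells. The second Dtx3l probe set gave -1.85 with adjusted p = 0.0315, while the second of Trim21 gave -0.24 with adjusted p = 0.888. The Xaf1 call was lost without WT 4 h replicate 2, KD unstimulated replicate 2 or KD 4 h replicate 2, with adjusted p up to 0.0707. The Ifi35 call was lost without WT unstimulated replicate 2, KD unstimulated replicate 2 or any 4 h array, with adjusted p up to 0.121. It was also lost without the trend (adjusted p = 0.0997), with only the compared groups (adjusted p = 0.061) and with the mean of its probe sets, at -0.31 with adjusted p = 0.496. The other Ifi35 probe sets gave -0.45 and 0.26, and neither was called. At 1 h 0 members were called for the difference of responses and 4 had an unadjusted p under 0.05, where 0.49% of all genes were called, 0.145% as higher and 0.345% as lower. Rnf213 and Parp9, by contrast, gave -0.29 ± 0.24, adjusted p = 0.581 and -0.54 ± 0.35, adjusted p = 0.468 at 4 h.

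**Figure D3:**
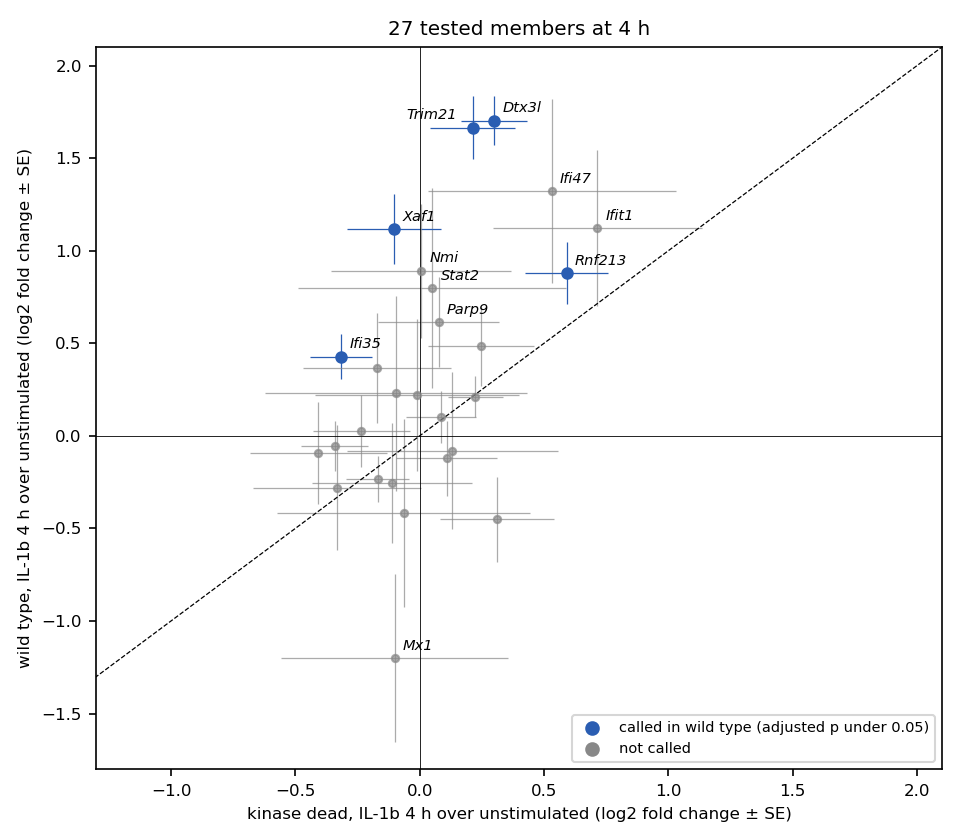
Log2 fold change at 4 h of IL-1b over unstimulated cells (± SE) of the 27 tested members, KD cells on the horizontal and WT cells on the vertical axis, with a dashed line of equal change. Blue points are the 5 members called in WT cells. Dtx3l lies at 0.30 in KD cells and 1.70 in WT cells, and Trim21 at 0.21 in KD cells and 1.66 in WT cells.

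Comparing the genotypes within 4 h of IL-1b, a comparison added after the data were seen, 2 members were higher and 6 lower in KD cells, where 23.1% of all genes were called, 13.8% as higher and 9.29% as lower. Dtx3l was -1.54 ± 0.13, adjusted p = 1.62e-07, Trim21 -1.16 ± 0.17, adjusted p = 7.44e-05, Parp9 -0.95 ± 0.24, adjusted p = 0.00904 and Xaf1 -0.85 ± 0.19, adjusted p = 0.00312. Trim25 at -0.60 and Rnf213 at -0.49 were the other 2 that were lower, and Irgm1 at 0.86 and Pml at 0.71 were higher. Within 1 h, Irgm1 alone was called, at 1.60 ± 0.14, adjusted p = 3.87e-07, where 13.3% of all genes were called, 6.95% as higher and 6.37% as lower.

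Of 15 interferon ligands 10 had a probe set, and 8 of these lay under the array median on all arrays, Ifnb1 among them at 1.8 to 19.2 and Ifng at 0.6 to 12.8. Of the 2 tested ligands, Ifna1 was called in no comparison. Ifnz, which encodes a type I interferon, had 409 and 396 without IL-1b, 270 and 283 at 1 h and 367 and 389 at 4 h in KD cells. It had 449 and 380.1 without IL-1b, 168 and 206 at 1 h and 305 and 374 at 4 h in WT cells. Both genotypes were lowest at 1 h, where Ifnz fell by 0.53 on the log2 scale in KD cells (adjusted p = 0.0444) and by 1.12 in WT cells (adjusted p = 6.24e-05). In WT cells it was higher at 4 h than at 1 h by 0.83 (adjusted p = 0.000366), and it was not called at 4 h against unstimulated cells of either genotype. Over all conditions it was higher in KD cells by 0.22 (adjusted p = 0.04). In WT cells at 4 h 4.69% of all genes were called higher and 7.34% lower. Of 13 tested receptor and JAK-STAT genes 2 were higher and 1 was lower, with a list median of 0.18. Jak2, a receptor-associated kinase, was higher by 0.95 ± 0.14 (adjusted p = 0.000146) and Ptpn2, a phosphatase that limits JAKs, by 0.68. Pias1, a STAT inhibitor, was lower, at -0.35. The 4 h response of Jak2 differed between genotypes, KD minus WT, by -1.16 ± 0.19 (adjusted p = 0.00209). Of 12 tested sensing genes 2 were higher, namely Tank at 0.82 and the kinase Tbk1 at 0.41, and 0 lower, with a list median of 0.06. Among 31 tested other interferon-stimulated genes 6 were higher and 0 lower in WT cells at 4 h, with Slfn2, a Schlafen gene of immune cell quiescence, at 3.61 ± 0.37 (adjusted p = 3.68e-06) and Cd274, the ligand of PD-1, at 1.52, and a list median of 0.33. The median of all genes was -0.12. In KD cells at 4 h, where 0.618% of all genes were called, 0 genes of each of these lists were called. For the difference of 4 h responses, where 3.03% of all genes were called, 3 of the 31 were called, all lower in KD: Slfn2 at -2.32, Ifitm2 at -0.72 and Ifitm3 at -0.66, the last 2 being membrane proteins that block virus entry.

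In unstimulated cells 3 members were higher and 1 lower in KD, where 14.3% of all genes were called, 7.38% as higher and 6.94% as lower. Irgm1 signals were 217 and 241 without IL-1b, 285 and 266 at 1 h and 233 and 255 at 4 h in KD cells, against 123 and 119 without IL-1b, 83.2 and 87.8 at 1 h and 124 and 138 at 4 h in WT cells. Every KD array lay above every WT array, with a difference of 0.87 ± 0.14, adjusted p = 0.000353 without IL-1b and 1.11 ± 0.08, adjusted p = 1e-08 over all conditions. Eif2ak2 (PKR), which halts translation on double-stranded RNA, had 468 and 486 without IL-1b, 404 and 348 at 1 h and 324 and 434 at 4 h in KD cells. It had 317 and 337 without IL-1b, 298 and 310.3 at 1 h and 309 and 319.7 at 4 h in WT cells, and unstimulated groups did not overlap. The difference was 0.53 ± 0.14, adjusted p = 0.013 without IL-1b and 0.36 ± 0.08, adjusted p = 0.00182 over all conditions, and 2 further probe sets gave 0.39 and 0.41 over all conditions. Trim25 was lower in KD cells without IL-1b, at -0.61 ± 0.11, adjusted p = 0.000988, and Ifi35 was higher, at 0.71 ± 0.12, adjusted p = 0.000716. The other Ifi35 probe sets gave 0.35 and -0.25, neither of them called, and the mean of its probe sets gave 0.27 with adjusted p = 0.271. The Eif2ak2 call without IL-1b was lost without the trend or without either KD unstimulated array, with adjusted p up to 0.0834. The 3′ to 5′ signal ratio of the actin control, a sign of RNA length, was 2.85 ± 0.0178 in unstimulated KD cells and 2.41 ± 0.385 in unstimulated WT cells (SD, n = 2), and its part in these differences was not tested. In bulk samples such as these a change in the number of cells of a type and a change in RNA per cell cannot be told apart.

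Over all conditions 4 members were higher and 4 lower in KD cells, where 31.8% of all genes were called, 18.2% as higher and 13.7% as lower. Bst2 (tetherin), which holds budding virions on the cell, had 42 and 57.7 without IL-1b, 39.1 and 36.5 at 1 h and 54.3 and 37.1 at 4 h in KD cells. It had 24.3 and 28 without IL-1b, 31.6 and 33.8 at 1 h and 30.7 and 13.1 at 4 h in WT cells, with all KD arrays above all WT arrays, and the difference was 0.60 ± 0.19, adjusted p = 0.0196. The Bst2 call was lost without WT 4 h replicate 2, KD unstimulated replicate 2 or KD 4 h replicate 1, with adjusted p up to 0.0708. In the IL-1b groups alone, a comparison added after the data were seen, Bst2 gave 0.53 with adjusted p = 0.101. Isg20, an exonuclease of single-stranded RNA, had 2.2 and 27.8 without IL-1b, 15.6 and 27.2 at 1 h and 18.2 and 4.2 at 4 h in KD cells and 38.9 and 22.8 without IL-1b, 57.1 and 44.9 at 1 h and 49.3 and 26.7 at 4 h in WT cells. Its arrays overlapped and several lay under the array median, with a difference of -1.11 ± 0.30, adjusted p = 0.00947. Ddx58 (RIG-I), a sensor of viral RNA ends, had 98.7 and 91 without IL-1b, 94.9 and 78.6 at 1 h and 109 and 119 at 4 h in KD cells. Its WT signals were 95 and 140.1 without IL-1b, 89.2 and 141 at 1 h and 168 and 162 at 4 h, and the difference was -0.37 ± 0.12, adjusted p = 0.0281, a call lost in 6 of the 12 fits without an array, with adjusted p up to 0.11. Those arrays were WT unstimulated replicate 2, WT 1 h replicate 2, WT 4 h replicate 1, KD unstimulated replicate 2, KD 1 h replicate 2 and KD 4 h replicate 1. The second Ddx58 probe set gave -0.03 for that difference but was higher in WT cells at 4 h by 0.89 with adjusted p = 0.0121. Trim25 gave -0.48 ± 0.06, adjusted p = 1.47e-05 and Dtx3l -0.68 ± 0.08, adjusted p = 2.1e-06. Taken by condition, Dtx3l was called between the genotypes at 4 h only, and its unstimulated arrays overlapped. Quantile or median scaling gave 4 higher and 6 lower members, where 3997 and 3574 of 12456 genes were called. Ifi35 gave 0.29 ± 0.07, adjusted p = 0.00498, but another of its probe sets gave -0.45 with adjusted p = 0.0347, so the direction depends on the probe set. The main probe set differed by 0.71 without IL-1b, by 0.19 ± 0.12, adjusted p = 0.391 at 1 h and by -0.04 ± 0.12, adjusted p = 0.873 at 4 h, so of the 3 conditions only the unstimulated cells were called. In the IL-1b groups alone it gave 0.08 with adjusted p = 0.589. The probe sets used for Ifi35 and Trim25 are of a type that can match several transcripts.

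**Figure D4:**
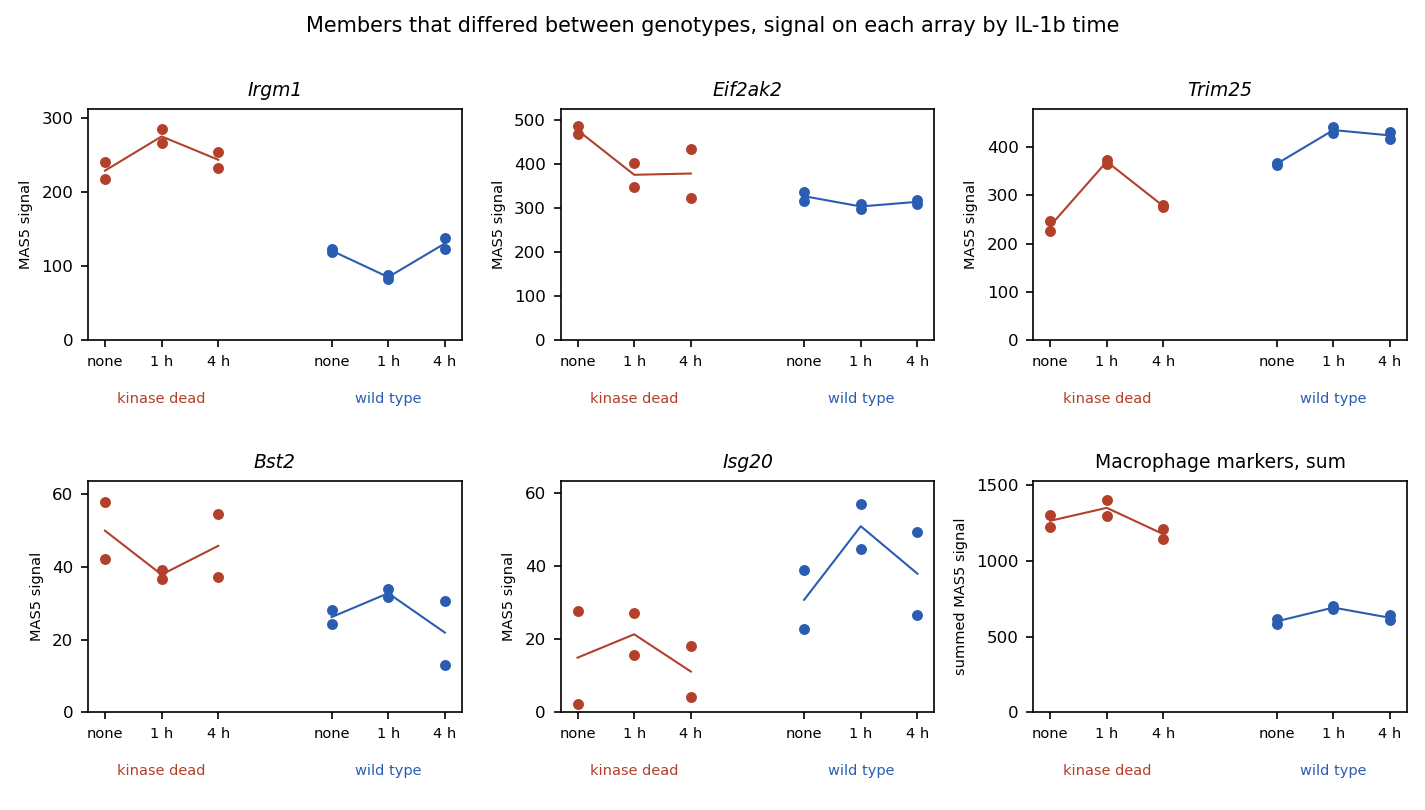
MAS5 signal on each array (points) and group mean (lines) of 5 members and the summed signal of 18 macrophage markers, without IL-1b and after 1 h and 4 h, KD cells left in red and WT cells right in blue. Irgm1 ranged over 217 to 285 on KD arrays and 83.2 to 138 on WT arrays, and the summed macrophage signal over 1144 to 1399 on KD arrays and 583 to 699 on WT arrays.

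Markers of some other cell types moved with the genotype. Over all conditions 31.8% of all genes were called between the genotypes, 18.2% as higher and 13.7% as lower in KD cells. The summed signal of 18 macrophage markers was 1144 to 1399 on KD arrays and 583 to 699 on WT arrays, without overlap, and 10 of the 14 tested were higher in KD cells over all conditions and 0 lower. Of the 18, 1 lay under the array median on all KD arrays and 10 on all WT arrays, and none was at 0. Summed neural markers were 651 to 750.3 on KD arrays and 374 to 475 on WT arrays, and of the 5 tested 3 were higher and 1 lower in KD cells. Fabp7, a fatty acid binding protein of glia, had 185 to 272 on KD arrays and 26.4 to 38.5 on WT arrays. Sox2 and Nes, of neural progenitors, were higher by 1.44 and 0.57, and the neuronal Map2 was lower, at -0.64. Of the 11 fibroblast markers 0 were higher and 3 lower in KD cells over all conditions. Pdgfra, a growth factor receptor, had 118 to 183 on KD arrays and 581 to 811 on WT arrays, and Lum, a matrix proteoglycan, had 56.9 to 81.9 on KD arrays and 277 to 609.7 on WT arrays. Neither gene's arrays overlapped between the genotypes, and Thy1 was lower as well, at -0.47. The part of these markers in the genotype differences of Irgm1, Eif2ak2, Bst2 and the other members was not tested. In the IL-1b comparisons within KD cells 0 of 14 macrophage, 0 of 5 neural and 0 of 11 fibroblast markers were called. There 0.618% to 4.04% of all genes were called, so counts of 0 among so few markers are near that share. Within WT cells, where 7.44% to 19% of all genes were called, 0 of 14 macrophage markers were called. In WT cells Sox2 was lower at 1 h, and between 1 h and 4 h Sox2 and Nes were higher and Map2 lower. Of the fibroblast markers Lum was higher and Pdgfrb and Twist1 lower in WT cells at 4 h, and Pdgfrb and Twist1 were lower at 4 h than at 1 h. Their part in the WT changes of members was not tested. All 6 dendritic cell markers lay under the array median on all arrays, as did 7 of 8 lymphocyte markers on all KD arrays and 6 of 8 on all WT arrays. Of 3 tested endothelial markers 1 was higher in KD cells over all conditions and 0 lower. For the 2 tested epithelial markers and the 1 tested lymphocyte marker there was no call in that comparison. The 11 fibroblast markers were all above it on some array of each genotype, at summed signals of 28493 to 30476 in KD cells and 27669 to 32486 in WT cells.

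The members with no call complete the set. Samhd1, which breaks down deoxynucleotides, ranged over 281 to 419 and Ifih1 (MDA5), a sensor of long double-stranded RNA, over 29 to 64.4. Stat2, which acts with IRF9, ranged over 3 to 43.5, and Sp100, a nuclear body protein, over 2.4 to 27.6. Igtp, another immunity-related GTPase, ranged over 13.5 to 50.3, and Lgals3bp, a secreted glycoprotein, over 23.3 to 60. In all, 15 of 27 tested members were called in at least 1 of 10 planned comparisons and 12 in none, where 44.5% of all genes tested were called in at least 1.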

How the data were processed

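Total RNA from each culture was amplified, labelled and hybridised to 12 single-colour arrays. The deposited values are MAS5 signal intensities on a linear scale, per the submitters' processing notes; for version and settings the sources used here give nothing. Each array's mean after trimming 2% at each end was 150, and array medians were 23 to 28.3. Signals correlated at 0.967 to 0.974 within groups and 0.941 to 0.973 between groups (log2 scale). Of 45101 probe sets 64 were controls, 34945 had a single gene symbol, 932 several and 9160 none listed. Symbols were updated through 34741 gene identifiers that matched GRCm38.p6.

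Values were analysed as log2(signal + 8), so folds of low signals are understated. Probe sets had to reach 25.5 on at least 2 arrays, and each gene kept the set with the highest mean. Limma 3.58.1 in R 4.3.3 fitted 6 group means to 12456 genes (6 residual degrees of freedom, eBayes with trend). Adjusted p under 0.05 (Benjamini-Hochberg within a comparison) was called. Arrays give no counts, so their number limits precision. On simulated data for WT at 4 h with 200 altered genes, a log2 change of 1 was called in 57.5% and a change of 2 in 91.5%. For the 4 h response difference these shares were 39.5% and 79%. Promoters were RefSeq's; figures used matplotlib 3.10.9 in Python 3.11.15. Members with a call were given on every array, others by range. Members and gene lists were chosen with earlier results of these data known. Alternatives were pseudocounts of 1 and 16, no filter or one at 51, quantile and median scaling, no trend, the mean of all probe sets, only the compared groups, a replicate block and leaving out each array.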

Additional observations from a re-analysis of the deposited data

Results flagged for a closer look

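In 4 members the test of the response difference itself passed: the 4 h response to IL-1b differed between KD and WT cells. The difference, KD minus WT on the log2 scale, was -1.40 ± 0.19, adjusted p = 0.000329 for Dtx3l, and -1.45 ± 0.24, adjusted p = 0.00198 for Trim21. It was -1.22 ± 0.27, adjusted p = 0.0167 for Xaf1 and -0.74 ± 0.17, adjusted p = 0.0248 for Ifi35 (limma). For Xaf1 and Ifi35 the unstimulated KD arrays lay above the unstimulated WT arrays, which is part of these differences. Dtx3l kept its call in all 10 other settings and all 12 fits without an array. Trim21 lost it where all its probe sets were averaged (adjusted p = 0.165), the second of them dim at 11 to 33.6. It kept the call in all 12 fits without an array. The Ifi35 call was lost without the trend, with only the compared groups and with the mean of its probe sets, at adjusted p up to 0.496, and in 6 of the 12 fits without an array. Xaf1 kept its call in all 10 other settings and lost it in 3 of those 12 fits. Groups of 2 arrays are too small for a check of single outlying arrays.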

How the results depend on the processing

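Of 32 calls of single members, 14 were kept in each planned setting that gave a value (8 to 10 a call) and in all 12 fits without an array, and 18 were lost somewhere. Besides the losses given with the results, no filter ended the calls of Adar, Rnf213 and Pml between 4 h and 1 h in WT cells and of Ddx58 over all conditions. Omitting the trend ended those of Rnf213 and Ddx58, median centring those of Adar and Rnf213, and averaging probe sets those of Adar, of Ddx58 and of Rnf213 in WT at 4 h. Fitting only the compared groups ended that of Adar. The Ifit1 call between 4 h and 1 h was lost with a pseudocount of 1, either scaling, only the compared groups or the replicate block. The counts in WT cells at 4 h were 5 higher and 0 lower with quantile and with median scaling too. In these 1263 and 1063 of 12456 genes were called. Omitting the trend added Ifit1 at 1.12 (adjusted p = 0.0207). Averaging probe sets added Ddx58 as higher, at 0.69 (adjusted p = 0.024), and Pml as lower, at -0.79 (adjusted p = 0.026). In WT cells at 1 h the count of 1 became 2 with a pseudocount of 1 and with median centring. It became 4 with a filter at 51 and 3 with the mean of all probe sets. It became 0 without the trend or with only the compared groups. The members added were Dtx3l, Irgm1 or Parp9. Of all 12456 genes the main fit called 927 there, against 897 with a pseudocount of 1 and 987 with median centring. The mean of all probe sets called 774, no trend 465 and only the compared groups 410. The filter at 51 called 1004 of 9643. Between 4 h and 1 h in KD cells the count of 0 became 1 with a pseudocount of 1, no filter, a filter at 51, median centring or only the compared groups. Each time the member was Trim25, lower at 4 h, at -0.40 to -0.47 (adjusted p = 0.0376 to 0.0492, limma). Of all 12456 genes the main fit called 503 there, a pseudocount of 1 485, median centring 376 and only the compared groups 1001. No filter called 349 of 18193 and the filter at 51 called 581 of 9643. The cause was not tested. With the mean of all probe sets, Rnf213 reversed between 4 h and 1 h in WT cells to -0.0672, and Ifi35 over all conditions to -0.0294. Both have other probe sets that did not follow the main set, and that of Rnf213 was dim. Leaving out an array, whose partner is then assumed to vary like the other groups, gave 0 to 2 calls in WT at 1 h, 4 to 6 in WT at 4 h, 3 to 9 in WT between 1 h and 4 h, 0 to 2 in KD at 1 h, 0 to 1 in KD between 1 h and 4 h, 2 to 4 for the 4 h response difference and 6 to 11 for KD against WT over all conditions. Median centring moved the median of all genes in WT cells at 1 h to 0.10, against -0.06. The replicate numbers did not pair the samples (correlations of replicate differences from -0.05 to 0.10 over 15 pairs of groups). With the replicate block 5 members were called in WT at 4 h, 8 in WT between 4 h and 1 h and 4 for the 4 h response difference. Of all 12456 genes, 1486, 2342 and 368 were called there. The comparison over all conditions already uses all groups, so the fit of only compared groups was not run for it. With 2 arrays a group and members near the array median, small changes could not be detected.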

Other observations

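The log2 genotype differences (KD over WT) of the other interferon pathway genes ran in both directions over all conditions. Of 13 receptor and JAK-STAT genes 2 were higher and 5 lower in KD cells, with the feedback inhibitor Socs3 at -1.49, Ptpn2 at -0.74, Jak1 at -0.48 and Irf9 at 0.44. Of 12 sensing genes 0 were higher and 3 lower: Sting1, the adaptor of the DNA sensor, at -0.95, the DNA sensor Cgas at -0.57 and Tank at -0.24. Of 31 other interferon-stimulated genes 6 were higher and 6 lower, with the immunity-related GTPase Iigp1 at 1.11 and the lysosomal reductase Ifi30 at 0.97, against Ifi204 at -1.14 and Slfn2 at -1.11. These stand beside 31.8% of all genes called. Irf7, the transcription factor of late interferon induction, fell in WT cells at 1 h, at -1.65 against unstimulated WT cells. In that comparison 7.44% of all genes were called. Irf7 was dim: its WT signals were 30.8 and 41.1 without IL-1b and 7.1 and 4.8 at 1 h, under the array median. Its KD signals were 17.5 and 23.9 without IL-1b, 22.7 and 35.8 at 1 h and 4.8 and 4.2 at 4 h.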
